A study of Mus musculus with 6 samples.

Results

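H1f0, Cacna1h, Mtap2, Wls and Rbpms are 5 genes whose RNA was lower than in wild type in B cells without zinc finger 1 of Ikaros and higher than in wild type in B cells without zinc finger 4. They were picked by name from the 22098 gene names of an RNA-seq table because their mean RPKM was lower in the ZnF1-/- libraries and higher in the ZnF4-/- libraries, so these differences are what chose them and are given as a description. All 5 were among the 10322 genes tested, which had a mean of at least 1 RPKM (reads divided by transcript length in kilobases and by the size of the library) over the 6 libraries, and all 5 also averaged over 1 RPKM in wild type alone.

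Poly(A) RNA was sequenced from marrow B cells of 6-week-old C57BL/6 mice, which had been sorted for IgM on their surface. The genotypes were Ikaros ZnF1-/- (2 libraries), Ikaros ZnF4-/- (2 libraries) and wild type (2 libraries). The deletions are germline, so all cells of the mice carried them, and the design asks what loss of a single finger does to gene expression. The labels number the 2 libraries of a genotype without saying that they came from different animals, so p-values measure the spread between these samples only. For wild type that spread may be technical, while sex-linked genes, given further on, showed different animals within each mutant. In bulk RNA, fewer cells that express a gene and less RNA per cell cannot be told apart.

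Ikaros, the product of Ikzf1, is a zinc finger transcription factor of lymphocytes. Its N-terminal fingers bind DNA that holds the core GGGAA, and the outer fingers 1 and 4 adjust which sites are bound. Ikaros can both repress and activate genes, partly through chromatin remodelling complexes. The 5 genes belong to unrelated families. H1f0 encodes a replacement linker histone, which sits on the DNA that enters and leaves the nucleosome and is known to accumulate in cells that have stopped dividing. Cacna1h encodes the pore-forming subunit of a T-type calcium channel, which opens at weak depolarisation. Wls encodes the membrane protein that carries lipid-modified Wnt ligands to the cell surface. Mtap2, now named Map2, encodes a protein that binds and stabilises microtubules and is best known from the dendrites of neurons. Rbpms encodes an RNA-binding protein with an RNA recognition motif, which regulates splicing in smooth muscle.

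Because the 5 genes shared a pattern across genotypes, the promoters listed for them by RefSeq were searched for the Ikaros core. Entries were matched for H1f0, Mtap2 and Wls, each running from 250 bases before to 50 bases after the start of the gene on the plus strand of GRCm38.p6. They lie at chr15:79027962-79028261 for H1f0, at chr1:66175079-66175378 for Mtap2 and at chr3:159839400-159839699 for Wls. Capitals mark GGGAA, or its reverse complement TTCCC, in the otherwise lower-case sequence, which is printed 5′ to 3′.
H1f0: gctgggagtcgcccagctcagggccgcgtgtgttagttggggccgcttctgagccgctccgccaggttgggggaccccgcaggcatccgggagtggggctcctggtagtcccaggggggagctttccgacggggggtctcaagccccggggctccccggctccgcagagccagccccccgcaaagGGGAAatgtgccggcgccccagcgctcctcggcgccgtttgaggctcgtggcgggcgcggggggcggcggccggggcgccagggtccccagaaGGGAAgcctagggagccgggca
Mtap2: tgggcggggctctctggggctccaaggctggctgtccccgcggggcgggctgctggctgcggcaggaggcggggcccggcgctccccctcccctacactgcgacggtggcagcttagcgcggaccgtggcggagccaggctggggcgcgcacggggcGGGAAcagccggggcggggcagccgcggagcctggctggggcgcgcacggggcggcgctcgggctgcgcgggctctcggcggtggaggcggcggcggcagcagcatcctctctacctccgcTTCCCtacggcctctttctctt
Wls: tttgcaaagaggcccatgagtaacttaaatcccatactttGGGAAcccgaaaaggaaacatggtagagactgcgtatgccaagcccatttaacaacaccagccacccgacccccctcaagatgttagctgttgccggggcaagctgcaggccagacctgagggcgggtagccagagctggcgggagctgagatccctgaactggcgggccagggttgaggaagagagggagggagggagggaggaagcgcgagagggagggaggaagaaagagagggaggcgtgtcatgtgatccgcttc

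Counting from +1 at the start of the gene, the first base of GGGAA stood at -65 and at +29 in the H1f0 promoter. In the Mtap2 promoter it stood at -93 on the plus strand, and the reverse complement began at 29. The Wls promoter held GGGAA once, and there it was part of the longer TGGGAA, which began at -211. The H1f0 and Mtap2 promoters held no TGGGAA on either strand. Of 32544 distinct promoter sequences of the same length, 62.7% held GGGAA on at least 1 strand, 27.1% held it at least 2 times, and 25.4% held TGGGAA. The 3 promoters were thus like many others in these letters, and a match describes the sequence and not a bound site. G and C made up 75.0% of the H1f0, 77.7% of the Mtap2 and 58.0% of the Wls promoter, where the median over all promoters was 53.0%.

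H1f0 was near the bottom of the tested genes without finger 1 and well above their middle without finger 4. It was at 1.0 and 1.2 RPKM in the ZnF1-/- libraries, at 21.5 and 20.5 in the ZnF4-/- libraries and at 10.1 and 7.7 in wild type. Both ZnF4-/- libraries were high and close together, both ZnF1-/- libraries were low, and wild type lay between them without overlap. On the log2(RPKM + 0.5) scale the difference from wild type was -2.55 (SE 0.18) for ZnF1-/- and 1.21 (SE 0.18) for ZnF4-/-. The ratio of the means was 19.1 between ZnF4-/- and ZnF1-/-. In rank, 2.3% of the tested genes had a lower mean than H1f0 in ZnF1-/-, 68.9% in ZnF4-/- and 40.9% in wild type.

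Cacna1h differed most evenly from wild type in both directions. It was at 0.6 RPKM in both ZnF1-/- libraries, at 20.0 and 15.0 in the ZnF4-/- libraries and at 3.9 in both wild-type libraries. No library of one genotype reached into the range of another. The log2 difference from wild type was -2.0 (SE 0.19) for ZnF1-/- and 2.02 (SE 0.19) for ZnF4-/-, and the ratio of the ZnF4-/- to the ZnF1-/- mean was 29.2. The file lists a second, slightly longer Cacna1h transcript, which was listed at 0 in both ZnF1-/- libraries, at 0.9 and 0.7 RPKM in ZnF4-/- and at 0.1 in both wild-type libraries. Values are rounded to steps of 0.1 RPKM, so such low rows give no usable ratio. Here ZnF1-/- and wild type differed by that step only, so their order is not settled by this transcript.

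Wls had the highest levels of the 5 genes and the widest gap between the ZnF1-/- libraries. It was at 1.2 and 3.3 RPKM in ZnF1-/-, at 29.4 and 25.5 in ZnF4-/- and at 9.2 and 10.1 in wild type. The higher ZnF1-/- library, replicate 2, still lay below both wild-type libraries, and both ZnF4-/- libraries lay above them. The log2 difference from wild type was -2.0 (SE 0.33) for ZnF1-/- and 1.46 (SE 0.33) for ZnF4-/-. For ZnF1-/- it was -1.42 without ZnF1-/- replicate 1 and -2.58 without ZnF1-/- replicate 2. A non-coding Wls transcript in the file did not exceed 0.1 RPKM in any library.

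Mtap2 was barely detected without finger 1. It was at 0.1 RPKM in ZnF1-/- replicate 1 and listed at 0 in replicate 2, at 9.2 and 6.7 in the ZnF4-/- libraries, and at 1.8 and 4.4 in wild type. Its wild-type libraries were the most unlike each other of the 5 genes, but neither overlapped with a mutant library. The log2 difference from wild type was -2.62 (SE 0.37) for ZnF1-/- and 1.32 (SE 0.37) for ZnF4-/-. For ZnF4-/- it became 0.77 when wild-type replicate 1 was left out and 1.86 when replicate 2 was. With values this close to 0 the added constant sets the size of the ZnF1-/- difference, which was -4.37 with 0.1 added and -1.89 with 1 added.

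Rbpms had the smallest difference between ZnF4-/- and wild type. It was at 0.5 and 0.4 RPKM in ZnF1-/-, at 8.4 and 9.0 in ZnF4-/- and at 5.0 and 3.7 in wild type. The libraries of the genotypes again did not overlap. The log2 difference from wild type was -2.34 (SE 0.21) for ZnF1-/- and 0.94 (SE 0.21) for ZnF4-/-, and the ratio of the ZnF4-/- to the ZnF1-/- mean was 19.3. For ZnF1-/- the log2 difference was -3.01 with 0.1 added in place of 0.5, and -1.63 with the mean over all its transcripts. Of its other transcripts, the shorter one, of 1064 bases, was listed at 0 in both ZnF1-/- libraries, at 0.7 and 0.3 RPKM in ZnF4-/- and at 0.4 and 0.2 in wild type. The remaining transcript stayed at or below 0.2 RPKM in every library.

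**Figure D1:**
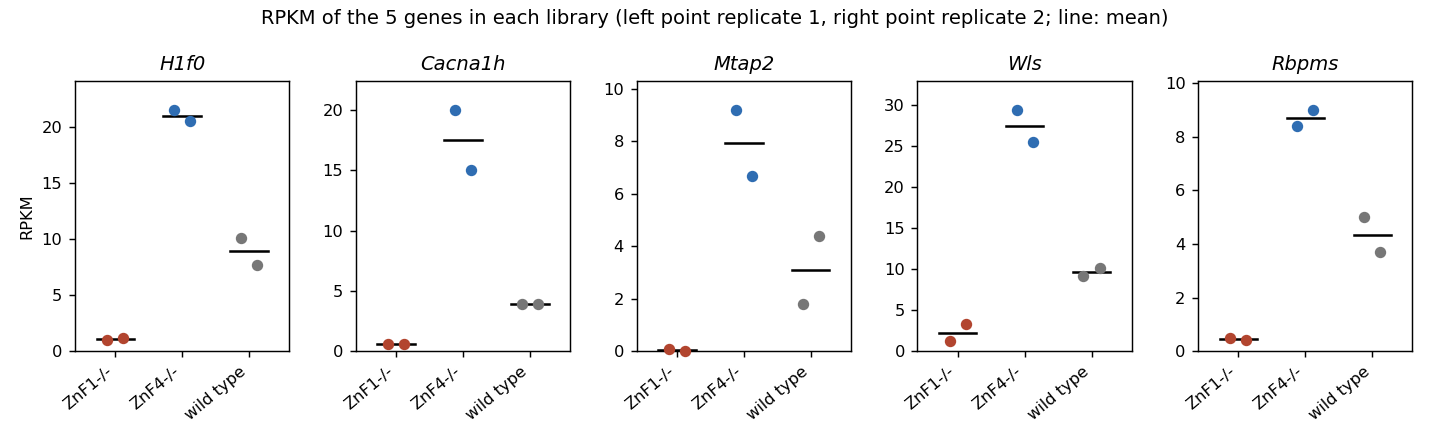
RPKM (linear axes from 0) of H1f0, Cacna1h, Mtap2, Wls and Rbpms in the 2 ZnF1-/-, 2 ZnF4-/- and 2 wild-type libraries, with the mean of each genotype as a line. In each panel both ZnF4-/- points lie above, and both ZnF1-/- points below, the wild-type points, which are furthest apart for Mtap2 (1.8 and 4.4 RPKM).

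All 5 genes therefore had the same order, ZnF4-/- above wild type above ZnF1-/-, with no overlap between the libraries of any 2 genotypes. Over all tested genes, 20.3% were lower in ZnF1-/- and 23.1% were higher in ZnF4-/- than in wild type without overlap, and 3.28% had the complete order. As group means chose the genes, the 5 of 5 are not read against these shares. Both comparisons use the same wild-type libraries, so a high wild-type value makes the difference larger in ZnF1-/- and smaller in ZnF4-/- for such genes.

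The replicate 2 libraries of both mutants looked male. Xist, which is transcribed from an inactive X, was listed at 0 and the Y-linked gene Ddx3y was at 20.4 and 16.6 RPKM in replicate 2 of ZnF1-/- and of ZnF4-/-, while the replicate 1 libraries and both wild-type libraries had Xist at 39.6 to 66.8 RPKM and Ddx3y listed at 0. Among the libraries with Xist, H1f0 was at -2.64 in ZnF1-/- and 1.24 in ZnF4-/- relative to the wild-type mean on the log2 scale. Cacna1h was at -2.0 and 2.22, Mtap2 at -2.48 and 1.53, Wls at -2.58 and 1.56, and Rbpms at -2.26 and 0.89, each with ZnF1-/- given before ZnF4-/-. With no wild-type library lacking Xist, the same could not be asked among males.

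The 5 genes stand among few genes with sizeable differences of this kind, without a sharp border. By the log2 means, 1776 tested genes (17.2%) were lower in ZnF1-/- and higher in ZnF4-/-, and 7 (0.0678%) were so by at least 1 on the log2 scale in each comparison. Ranked by the smaller of their differences, Cacna1h was in position 1 (2.0), Wls 2 (1.46), Mtap2 4 (1.32), H1f0 5 (1.21) and Rbpms 10 (0.94). The genes ranked among them that are not members were Igj (1.42), the antibody J chain gene, Mir186 (1.09), Decr2 (1.05), a peroxisomal reductase gene of fatty acid breakdown, 9830001H06Rik (0.98) and Sit1 (0.96), which encodes an adaptor protein of lymphocyte signalling. Igj is set apart by its spread, with 13.5 and 3.3 RPKM in ZnF1-/-, 71.9 and 65.2 in ZnF4-/- and 413.8 and 1.1 in wild type. By mean RPKM, the measure that chose the members, Igj was lower in ZnF4-/- than in wild type. Decr2 was at 1.1 and 1.0 RPKM in ZnF1-/-, at 6.3 and 7.0 in ZnF4-/- and at 2.9 and 3.0 in wild type. Sit1 was at 7.4 and 5.0 RPKM in ZnF1-/-, at 33.4 and 44.0 in ZnF4-/- and at 12.4 and 12.2 in wild type. Just below Rbpms stood Pfn2 (0.92), the gene of an actin-binding profilin, which falls outside the rule for named genes and was chosen after its values were seen.

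**Figure D2:**
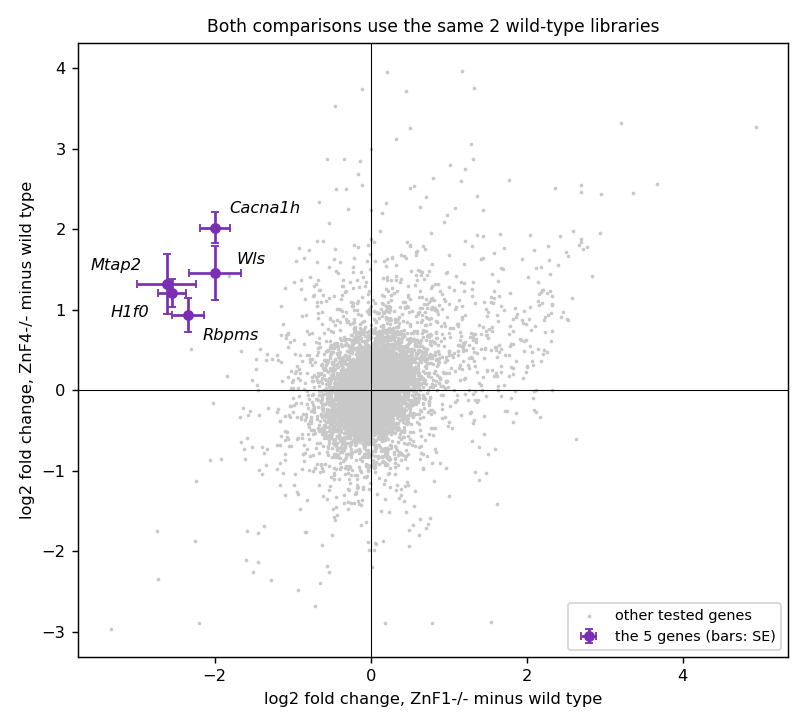
Log2 fold change on the log2(RPKM + 0.5) scale in ZnF1-/- (horizontal) and ZnF4-/- (vertical), each against the same 2 wild-type libraries, for all 10322 tested genes (grey) and for the 5 genes (purple, bars are SE). The 5 genes lie in the upper left, between -2.62 and -2.0 horizontally and between 0.94 and 2.02 vertically.

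The profiles of the genes were close to each other and not identical. Likeness was measured over the 6 libraries as the root-mean-square difference between log2 profiles, each taken relative to its wild-type mean. These are the values that chose the members, so members lying close to each other follows in part from that choice and is given as a description. H1f0 and Rbpms were the most alike pair, 0.22 apart, and Cacna1h and Rbpms the least alike, 0.68 apart. Of the 3 tested genes closest to each member, all were other members for H1f0, Cacna1h, Mtap2 and Wls. For Rbpms the closest gene was H1f0, followed by Rasd1, a Ras-like GTPase gene induced by glucocorticoids (0.40), and Inppl1, an inositol phosphatase gene (0.51). Rasd1 was at 0.9 and 0.2 RPKM in ZnF1-/-, at 6.7 and 6.2 in ZnF4-/- and at 6.5 and 2.9 in wild type, so its ZnF4-/- libraries overlapped with wild type.

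Genes related to the 5 by family or pathway were not used to choose them and were tested. Their lists were, however, chosen with earlier results of these data known. In 10 lists, 190 further genes were in the table and 84 were tested by limma over all 10322 genes with Benjamini-Hochberg adjustment. In ZnF1-/- none of the 84 passed an adjusted p of 0.05 by limma, where 0.271% of all tested genes passed, 0.0969% higher and 0.174% lower. An unadjusted p under 0.05 by limma was reached there by 14 of the 84 and by 1232 of all 10322. In ZnF4-/- 2 of the 84 rose and none fell, where 3.2% of all tested genes passed, 1.78% higher and 1.41% lower. Those genes were Fzd9 and Mtap7. An unadjusted p under 0.05 by limma was reached in ZnF4-/- by 21 of the 84 and by 1800 of all 10322. The related genes thus passed the adjusted threshold about as often as any tested gene, and the unadjusted one somewhat more often.

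Fzd9, a Frizzled receptor gene for Wnt ligands, was at 0.7 and 0.8 RPKM in ZnF1-/-, at 5.0 and 4.3 in ZnF4-/- and at 1.3 and 1.7 in wild type. The libraries of the genotypes did not overlap, in the order of the 5 genes. It rose in ZnF4-/- with a log2 fold change of 1.37 (SE 0.23, limma adjusted p = 0.0251), while the ZnF1-/- difference of -0.67 did not pass (adjusted p = 0.309). The mutants differed directly, where 4.78% of all tested genes passed (2.08% higher and 2.69% lower in ZnF1-/-), with a difference of -2.04 for ZnF1-/- minus ZnF4-/- (adjusted p = 0.00477). The rise did not pass when 1 library of either genotype was left out, with limma adjusted p = 0.194 and 0.184 for ZnF4-/- replicates 1 and 2 and 0.163 and 0.125 for wild-type replicates 1 and 2. The direct difference likewise did not pass without ZnF4-/- replicate 1 (limma adjusted p = 0.113) or replicate 2 (0.0808).

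Mtap7 encodes a microtubule-binding protein that recruits kinesin. It was at 10.7 and 9.2 RPKM in ZnF1-/-, at 27.9 and 26.1 in ZnF4-/- and at 12.5 and 16.6 in wild type, again without overlap. It rose in ZnF4-/- (log2 fold change 0.88, SE 0.17, limma adjusted p = 0.0369), the ZnF1-/- difference of -0.52 did not pass (adjusted p = 0.275), and the mutants differed directly by -1.40 (adjusted p = 0.0055). The rise did not pass when ZnF4-/- replicate 1 or 2 (limma adjusted p = 0.224 and 0.259) or wild-type replicate 1 or 2 (0.216 and 0.0933) was left out, nor with the replicate number as a block (0.0506). The direct difference did not pass without ZnF4-/- replicate 1 (limma adjusted p = 0.119) or replicate 2 (0.0868).

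**Figure D3:**
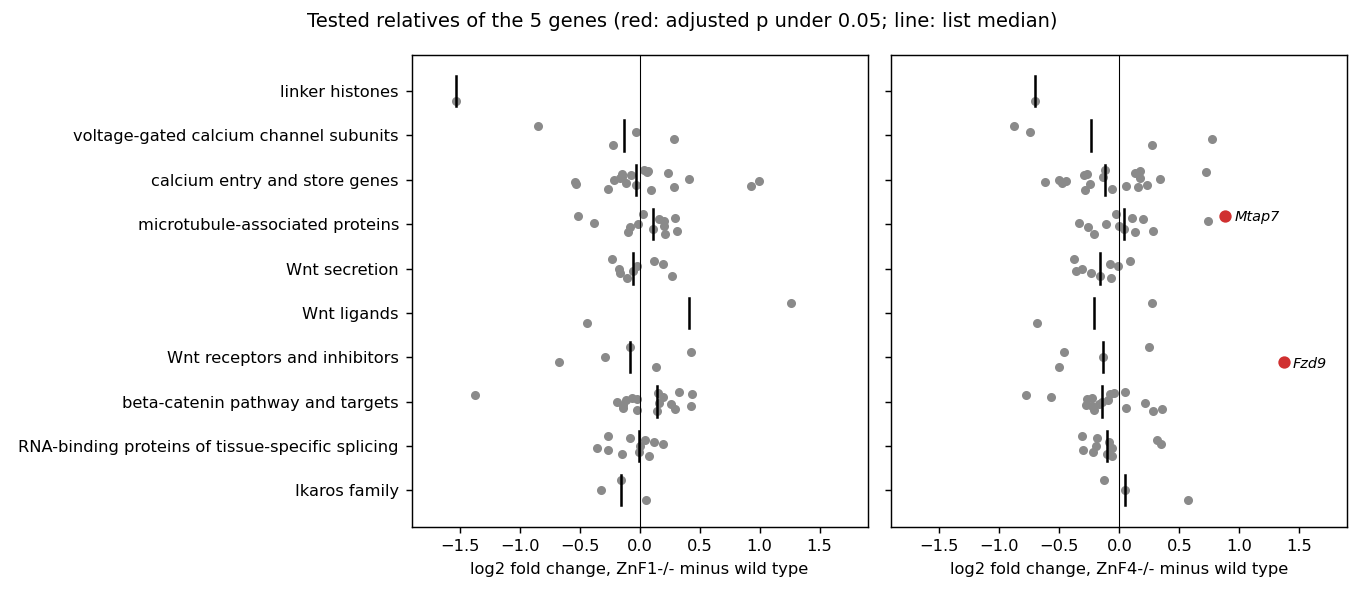
Log2 fold change in ZnF1-/- (left) and ZnF4-/- (right) against wild type of the tested relatives of the 5 genes, in 10 lists, without the 5 genes themselves. Points are genes, short lines are list medians, and red marks an adjusted p under 0.05, which only Fzd9 (1.37) and Mtap7 (0.88) in ZnF4-/- reached.

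Among the linker histones, the only other gene tested was Hist1h1c, which belongs to the histones made during DNA replication, whose messages mostly lack the poly(A) tail used here to select RNA. It was at 11.4 and 5.7 RPKM in ZnF1-/-, at 16.4 and 13.2 in ZnF4-/- and at 41.7 and 14 in wild type. The difference of -1.53 in ZnF1-/- and of -0.70 in ZnF4-/- did not pass (limma adjusted p = 0.276 and 0.504), and wild-type replicate 1 stood apart, without which the ZnF4-/- difference was 0.07. The other linker histone genes averaged under 1 RPKM, and 3 were listed at 0 in all libraries.

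Of 25 further subunit genes of voltage-gated calcium channels, 4 were tested and none passed in either mutant. The median log2 fold change of the 4 was -0.13 in ZnF1-/- and -0.24 in ZnF4-/-, where the median of all tested genes was 0.00 and -0.02. Cacna1i, another T-type pore gene, was at 27.0 and 19.4 RPKM in ZnF1-/-, at 12.7 and 14.9 in ZnF4-/- and at 27.2 and 20.1 in wild type (limma adjusted p = 0.98 in ZnF1-/- and 0.118 in ZnF4-/-). Per length, Cacna1h was thus below Cacna1i in every ZnF1-/- and wild-type library and above it in ZnF4-/- replicate 1. In ZnF4-/- replicate 2 the 2 genes were 1 rounding step apart, at 15.0 RPKM for Cacna1h and 14.9 for Cacna1i. Cacna1g, the third T-type pore gene, did not exceed 0.2 RPKM. Cacna1e, of the R type, was at 7.3 and 10.6 RPKM in ZnF1-/-, at 12.1 and 12.9 in ZnF4-/- and at 6.1 and 8.3 in wild type and did not pass. Of 19 tested genes of calcium entry and stores none passed, among them the calcium pump gene Atp2a3, at 339.0 to 446.9 RPKM over the 6 libraries, and Plcg2, the phospholipase gene of B cell receptor signalling, at 145.9 to 199.4 RPKM.

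**Figure D4:**
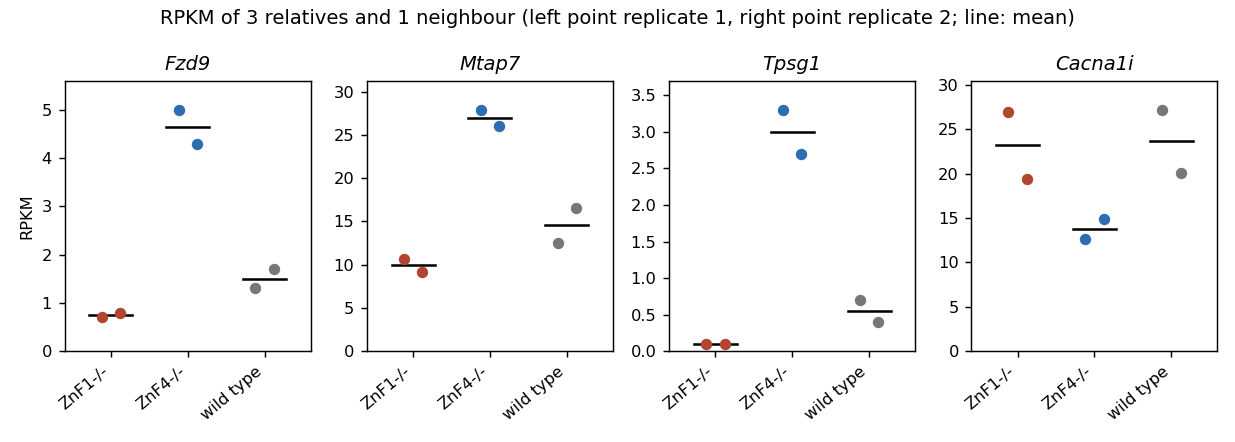
RPKM (linear axes from 0) of Fzd9, Mtap7, Tpsg1 and Cacna1i in each library, with the mean of each genotype as a line. Fzd9, Mtap7 and Tpsg1 have both ZnF4-/- points highest and both ZnF1-/- points lowest, while Cacna1i is lowest in ZnF4-/- (12.7 and 14.9 RPKM).

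Most genes of the Wnt pathway around Wls did not pass the test. Of 11 further genes of Wnt secretion, 9 were tested and none passed, with medians of -0.06 in ZnF1-/- and -0.16 in ZnF4-/-. The retromer genes Snx3 and Vps35, which return the Wls protein from endosomes, were at 62.1 to 90.3 and 32.4 to 43.0 RPKM over the 6 libraries. Porcn, the enzyme that attaches the lipid to Wnt proteins, did not exceed 0.1 RPKM. Of 19 Wnt ligand genes, 14 were listed at 0 in all libraries and 2 were tested, and neither passed. Wnt10b was at 9.6 and 12.4 RPKM in ZnF1-/-, at 6.3 and 4.4 in ZnF4-/- and at 2.9 and 6.2 in wild type. Wnt10a was at 6.0 and 5.3 RPKM in ZnF1-/-, at 5.3 and 4.1 in ZnF4-/- and at 7.3 and 8.4 in wild type. Of 17 tested genes of the beta-catenin pathway none passed, with medians of 0.15 in ZnF1-/- and -0.15 in ZnF4-/-, and Ctnnb1, which encodes beta-catenin, was at 93.2 to 135.9 RPKM. The kinase gene Csnk1a1 was at 76.8 to 103.3 RPKM. Fzd9 was 1 of 5 tested receptor and inhibitor genes, whose medians were -0.08 in ZnF1-/- and -0.14 in ZnF4-/-.

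Beside Mtap7, 12 of the 13 tested genes of microtubule-associated proteins did not pass in ZnF4-/- and none passed in ZnF1-/-. Their medians were 0.11 in ZnF1-/- and 0.04 in ZnF4-/-. Of the RNA-binding proteins of tissue-specific splicing, 11 relatives of Rbpms were tested, none passed in either mutant, and the medians were 0.00 in ZnF1-/- and -0.10 in ZnF4-/-. Mbnl1 and Rod1, now named Ptbp3, were the most abundant, at 65.4 to 105.8 and 71.8 to 104.8 RPKM. Rbpms2, the paralog of Rbpms, did not exceed 0.1 RPKM. Ikzf1 itself was at 201.1 and 168.4 RPKM in ZnF1-/-, at 287.3 and 244.0 in ZnF4-/- and at 176.5 and 178.6 in wild type, and neither it nor Ikzf3, its closest relative in B cells, at 226.3 to 337.8 RPKM, passed in either mutant. Such a value covers the entire transcript and cannot check for the loss of a finger.

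Genomic neighbours gave 1 gene with the order of the 5. Of the 18 nearest protein-coding genes, 2 on each side where the chromosome had them, 6 were tested, none passed in ZnF1-/- by limma (2 had an unadjusted p under 0.05) and 1 rose in ZnF4-/-. Over all tested genes 0.271% passed in ZnF1-/- and 3.2% in ZnF4-/-, 1.78% higher, and with 6 genes a single call says little about neighbours as a group. That gene was Tpsg1, a mast cell tryptase gene next to Cacna1h, at 0.1 RPKM in both ZnF1-/- libraries, at 3.3 and 2.7 in ZnF4-/- and at 0.7 and 0.4 in wild type. Its log2 fold change in ZnF4-/- was 1.75 (SE 0.30, limma adjusted p = 0.0285), and the direct difference was -2.54 (adjusted p = 0.00553). Tpsg1 overlaps with Cacna1h in the RefSeq annotation of GRCm38.p6, and no strand was stated for the reads, so reads of the pair cannot be told apart and Tpsg1 is no separate support. It also reached the filter of 1 RPKM only through ZnF4-/-. The rise did not pass when ZnF4-/- replicate 1 or 2 (limma adjusted p = 0.203 and 0.206) or wild-type replicate 1 or 2 (0.102 and 0.18) was left out, and the direct difference did not without ZnF4-/- replicate 1 (0.119) or replicate 2 (0.0857).

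None of the other tested neighbours passed in either mutant. Triobp and Nol12, beside H1f0, were at 23.8 to 29.1 and 11.1 to 17.6 RPKM over the 6 libraries, and Rpe, beside Mtap2, was at 13.2 to 18.2. Gtf2e2 and Dctn6, beside Rbpms, were at 12 to 16.9 and 25.4 to 37.5 RPKM. Both neighbours of Wls, which is the last protein-coding gene on its chromosome in RefSeq, were at or below 0.1 RPKM.

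The sorted cells had the profile of B cells, with Cd79b, a chain of the antigen receptor, at 1604.1 to 2226.7 RPKM and Cd3e, a T cell receptor chain, at 0.2 to 0.7. RNA of other marrow cells differed between libraries. The 19 granulocyte and monocyte markers in the table summed to 1532.6 and 8225.9 RPKM in ZnF1-/-, to 1898.6 and 2087.4 in ZnF4-/- and to 495.3 and 781.3 in wild type. Of these, 18 were tested and none passed in either mutant by limma, where 0.271% of all tested genes passed in ZnF1-/- and 3.2% in ZnF4-/-. An unadjusted p under 0.05 was reached by 16 of the 18 in ZnF1-/- (1232 of all 10322) and by 7 in ZnF4-/- (1800). The 14 erythroid and megakaryocyte markers summed to 101.7 and 677.9 RPKM in ZnF1-/-, to 171.3 and 244.5 in ZnF4-/- and to 148.4 and 167.7 in wild type. ZnF1-/- replicate 2 was highest in both sums, and it also had more Wls than ZnF1-/- replicate 1 (3.3 against 1.2 RPKM). In the same order, H1f0 was at 1.2 against 1.0, Cacna1h at 0.6 in both, Mtap2 at 0 against 0.1 and Rbpms at 0.4 against 0.5. The 13 pro-B and pre-B cell markers summed to 74.4 and 89.3 RPKM in ZnF1-/-, to 191.6 and 162.0 in ZnF4-/- and to 53.1 and 78.1 in wild type. Igll1 alone made up 130.4 and 121.3 RPKM of the ZnF4-/- sums, and 5.7 and 13.7 of those in wild type. Of the 13 markers, 10 were tested, 5 with a positive and 5 with a negative difference in ZnF4-/-. There Igll1, Vpreb1 and Kit rose and Rag1 and Il2ra fell by limma, where 1.78% of all tested genes rose and 1.41% fell. The 9 plasma cell markers in the table summed to 162.1 and 138.8 RPKM in ZnF1-/-, to 240.7 and 228.3 in ZnF4-/- and to 669.2 and 153.3 in wild type. Within these sums, Igj made up 13.5 and 3.3 RPKM in ZnF1-/-, 71.9 and 65.2 in ZnF4-/- and 413.8 and 1.1 in wild type. Of the 9 markers, 7 were tested and 1 fell in ZnF1-/-, where 0.174% of all tested genes fell. It was Sdc1, a plasma cell surface proteoglycan gene, at 0.6 and 0.4 RPKM in ZnF1-/-, at 1.6 and 1.7 in ZnF4-/- and at 5.3 and 3.3 in wild type (log2 fold change -2.24, SE 0.28, limma adjusted p = 0.0347). These 6 called markers were named after their values were seen, and no tested gene passed in ZnF1-/- when wild-type replicate 1 or 2 was left out (910 and 609 at an unadjusted p under 0.05, limma), or in ZnF4-/- when ZnF4-/- replicate 1 or 2 was left out (1551 and 1219). The part of these markers in the levels of the 5 genes was not tested.

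Markers of neurons and of marrow stroma and endothelium were low, and no list of smooth muscle markers was examined. Of 12 neuron markers, 8 were listed at 0 in all libraries, and the list summed to 2.9 and 3.5 RPKM in ZnF1-/-, to 1.7 and 2.2 in ZnF4-/- and to 1.5 in both wild-type libraries. The 14 markers of marrow stroma and endothelium, of which 3 were listed at 0 in all libraries, summed to 13.0 and 11.1 RPKM in ZnF1-/-, to 8.1 and 10.6 in ZnF4-/- and to 8.2 and 7.0 in wild type. The part of these cell types in the levels of Mtap2, Wls and the other genes was not tested.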

How the data were processed

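Poly(A) RNA of sorted IgM-positive marrow B cells was made into libraries with Illumina TruSeq, per the labels' protocols. Mapping to mm9 and the tools TopHat and bedtools are recorded, per the submitters' processing notes. Versions, the strand setting and the total used for scaling are not given in the sources used here. The authors deposited RPKM values for 26531 RefSeq transcripts in 6 libraries, rounded to 0.1, with transcript lengths. For transcripts under 150 bases, at most 41.5% of values fell on whole reads under the best total, so counts were not recovered and the depth is unknown.

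Each gene name was represented by its transcript of highest mean RPKM. Genes with a mean of at least 1 RPKM were tested on log2(RPKM + 0.5) with limma 3.58.1 in R 4.3.3 (1 coefficient per genotype over all 6 libraries, eBayes with an intensity trend, 3 residual degrees of freedom, two-sided, Benjamini-Hochberg over 10322 genes, called at an adjusted p under 0.05). A fold change on this scale understates the change of weakly expressed genes. Genes named were the 5 members, the next 5 in the same ranking, the 3 closest profiles, tested neighbours, and called or else the 2 most abundant genes of each related list. Pfn2, Cacna1g, Porcn and Rbpms2 were added after their values were seen. The members, lists and tests were chosen with earlier results of these data known. RefSeq promoters and gene order are from GRCm38.p6, a later assembly than mm9.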

Additional observations from a re-analysis of the deposited data

How the results depend on the processing

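All 5 genes stayed lower in ZnF1-/- and higher in ZnF4-/- under every alternative in which they were tested; with the longest transcript per name 2 of the 5 passed the filter, and those 2 kept the pattern. None of the 10 log2 differences of the 5 genes changed sign under any alternative. Of their recomputed values, 138 moved by less than the spread between libraries or not at all, and 26 by more. Several alternatives leave a difference as it is: another filter, eBayes without trend, and fitting only the 2 genotypes compared. The replicate block and leaving out a library of the genotype not compared do so too. As the libraries of the genotypes did not overlap, leaving out a library could not change a sign either. These alternatives therefore do not test the pattern.

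The number of genes passing was less stable. In ZnF1-/- against wild type it was 28 by limma, 0 without a filter on low values (1596 at an unadjusted p under 0.05), 13 with quantile normalization, and 0 when only the 2 genotypes compared were fitted (1053). Leaving out 1 library it ranged from 0 (without either wild-type or either ZnF4-/- library, with 609 to 1060 at an unadjusted p under 0.05) to 512 (without ZnF1-/- replicate 1), and it was 7 without ZnF1-/- replicate 2. In ZnF4-/- against wild type it was 330, 189 without a filter and 594 with only the 2 genotypes. Leaving out 1 library it ranged from 0 (without either ZnF4-/- library, with 1551 and 1219 at an unadjusted p under 0.05) to 591 (without ZnF1-/- replicate 1), with 11 and 3 without wild-type replicates 1 and 2 and 585 without ZnF1-/- replicate 2. Between the mutants it was 493, 309 without a filter and 249 with only the 2 genotypes. Leaving out 1 library it ranged from 0 (without ZnF4-/- replicate 1, with 1689 at an unadjusted p under 0.05) to 814 (without ZnF1-/- replicate 1), with 2 without ZnF4-/- replicate 2 and 259 without either wild-type library. A lone library left in a genotype is assumed to vary like the others.

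Of the 84 related genes, the 2 that rose in ZnF4-/- became 1 with a filter of 3 RPKM (Fzd9 was not tested), 1 with the mean over all transcripts of a name and 5 with only the 2 genotypes, and 0 to 5 leaving out 1 library. In ZnF1-/- the count was 0 to 2 leaving out 1 library. The 1 neighbour that rose became 0 with 0.1 added, with a filter of 3 RPKM and with quantile normalization, and 0 to 1 leaving out 1 library. Without a filter on low values the ZnF4-/- count stayed at 2, but with other related genes. Neither Fzd9 (limma adjusted p = 0.0532) nor Mtap7 (0.086) passed there. Without the intensity trend Mtap7 did not pass (limma adjusted p = 0.0606). Hist1h1c in ZnF4-/- turned to 0.07 without wild-type replicate 1, and was -1.47 without replicate 2. The cause of these changes was not tested.

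With the replicate number as a block, 27 genes passed in ZnF1-/-, 327 in ZnF4-/- and 529 between the mutants, and 1 of the 2 related genes. The numbers are not said to pair libraries, and the deviations of replicate 1 correlated across genes with r = 0.21 between ZnF1-/- and ZnF4-/-, 0.28 between ZnF1-/- and wild type and -0.03 between ZnF4-/- and wild type.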
